A study of Homo sapiens with 12 samples.

Results

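The genes of the constitutive proteasome were read in HCT116 cells, a human colon cancer cell line, with and without p53 and with and without INZ (Inauhzin), a small molecule that activates p53. Members were the genes whose symbol starts with PSMA, PSMB, PSMC, PSMD, PSME or PSMF followed by a digit. The immunoproteasome subunits PSMB8, PSMB9 and PSMB10 and pseudogenes were left out. Of 42 genes that matched by name, PSMC3IP and PSME3IP1 were set aside because they encode partners of a subunit and not subunits, which left 40 genes of the 17185 named on the array. They were read by 46 of its 45033 features, a feature being the set of probes for 1 transcript, and where a gene had several the brightest stood for it. The 40 are called subunit genes below, though some do not encode subunits of the finished particle. These are the assembly chaperones PSMD5, PSMD9 and PSMD10 and the inhibitor PSMF1, kept by the name rule. The RNA came from p53+/+ or p53-/- HCT116 cells that were given DMSO, the solvent control, or 4 μM INZ and were harvested after 18 hours, with 3 biological replicates in each of the 4 groups. Each genotype was represented by 1 cell line, so loss of p53 and any other difference between the lines cannot be told apart. Everything below is a log2 RMA intensity, the normalised brightness of a feature on 1 array, or a difference between such values. A difference of 1 is 2-fold.

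The proteasome is the protease that degrades proteins tagged with ubiquitin, p53 among them. Its 20S core is a stack of α and β rings, with the catalytic sites on the β subunits PSMB5, PSMB6 and PSMB7. A 19S cap with a base of ATPases and a lid receives, unfolds and feeds in the substrate, and other caps and inhibitors can bind the core in its place. Transcription of the subunit genes is raised together by the factor NRF1 (NFE2L1) when proteasome activity falls short.

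None of the 40 genes passed the test for a change with INZ in either genotype, and none passed it for a difference between the genotypes. The 7 genes of the β ring stayed within 2-fold of DMSO by their 95% intervals in both genotypes. PSMD2, a scaffold of the 19S cap, had the highest difference between INZ and DMSO in both genotypes. It was 1.74 in p53+/+ cells and 1.31 in p53-/- cells, neither past the threshold. In p53+/+ cells a large share of such a difference came from 1 control array. PSMF1, an inhibitor of the core, was lower with INZ where p53 was present and higher where it was absent, at -0.80 and 0.58, which also missed the threshold.

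The subunit genes were among the brighter features. Their mean over the 12 arrays lay between 5.35 and 14.14, with 11.96 as the median, and 29 of the 40 lay above the 90th percentile of all features at 10.92. The lowest was PSMA8 (NM_001025096), the α subunit of testis, which was between 4.78 and 5.96 in every array and was the only member below the median feature at 6.41. The next lowest were PSMF1, at a mean of 6.83, and PSMD12, a lid subunit, at 7.26, and the highest was PSMC3, an ATPase of the base, at 14.14. The probes of a feature set its brightness too, so the levels say nothing about which subunit RNA was most abundant.

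**Figure D1:**
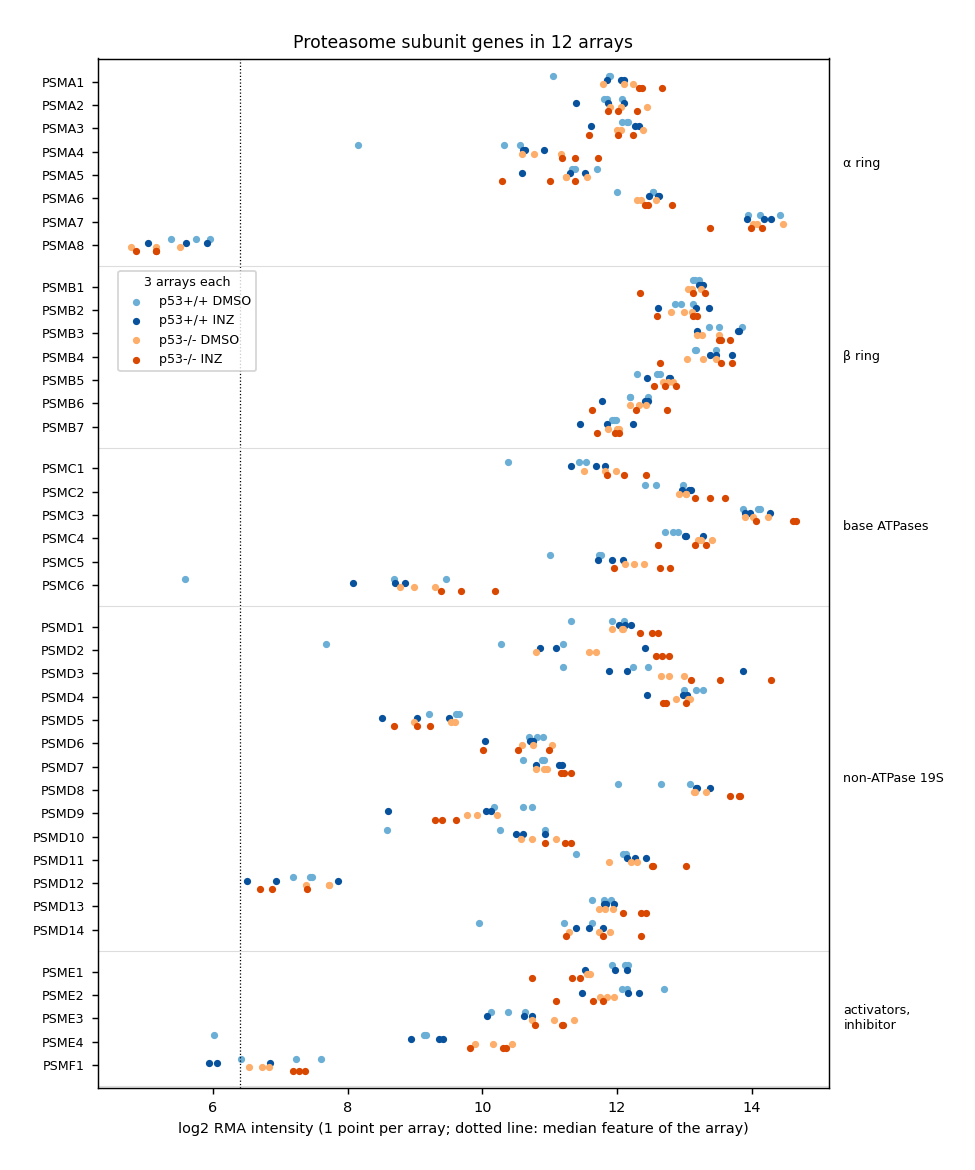
Log2 RMA intensity (x axis) of the 40 subunit genes (y axis, by class) in each array, with 1 point per array and 3 arrays per group, coloured by group. The dotted line is the median feature at 6.41. PSMA8 lies to its left in every array, most other genes lie far to its right, and single points of p53+/+ DMSO stand far left of the rest for PSMA4, PSMC6, PSMD2 and PSME4.

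The arrays of a group correlated at 0.909 to 0.975 over all features. The p53 target TP53I3 was at 13.90 to 14.20 in p53+/+ cells with INZ, against 9.79 to 10.13 with DMSO and 8.42 to 9.55 in p53-/- cells. In the array of p53+/+ DMSO replicate 1 TP53I3 was 10.08, above every p53-/- array. That array stood apart for the subunit genes, so results resting on it are given with and without it. Of 8 markers of colon epithelium, 6 were above the median feature, the exceptions being CDX1 and VIL1, and the 4 leukocyte markers were all below it. Of 4 fibroblast markers, COL1A2, DCN and PDGFRB were below it too, while COL1A1 was above it at a mean of 9.76 (8.85 to 10.60).

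Upstream sequence is shown for 4 genes on which the comparisons turn, PSMB5 as a steady catalytic subunit and PSMA4, PSMD8 and PSMD2 as genes with higher values in INZ-treated cells of both genotypes. Capitals mark matches on either strand to the core of the antioxidant response element, which NRF1 and NRF2 recognise (TGACNNNGC or TGAGNNNGC), to the CCAAT box, and to an ETS core (CCGGAA). The sequences are RefSeq promoter windows of GRCh38.p14, printed as the 250 bases before the start site, 5′ to 3′ on the strand of the gene. They are PSMB5 with its 2 windows at chr14:23034901-23035150 and chr14:23035221-23035470 (minus strand), PSMA4 at chr15:78540536-78540785 (plus strand, 1 of 3 windows), PSMD8 at chr19:38374321-38374570 (plus strand) and PSMD2 at chr3:184298991-184299240 (plus strand, 1 of 2 windows). For PSMA4 and PSMD2 the window with the most matches is shown.
PSMB5 window 1: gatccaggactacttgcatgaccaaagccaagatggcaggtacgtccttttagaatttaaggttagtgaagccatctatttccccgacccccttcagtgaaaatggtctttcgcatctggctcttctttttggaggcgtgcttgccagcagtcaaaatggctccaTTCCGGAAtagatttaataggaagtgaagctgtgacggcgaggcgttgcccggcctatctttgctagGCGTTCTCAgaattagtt
PSMB5 window 2: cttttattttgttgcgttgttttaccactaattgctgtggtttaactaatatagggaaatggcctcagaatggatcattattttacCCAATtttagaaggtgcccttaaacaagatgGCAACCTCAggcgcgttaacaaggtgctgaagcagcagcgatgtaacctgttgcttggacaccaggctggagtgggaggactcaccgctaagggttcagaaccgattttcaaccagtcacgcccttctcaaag
PSMA4: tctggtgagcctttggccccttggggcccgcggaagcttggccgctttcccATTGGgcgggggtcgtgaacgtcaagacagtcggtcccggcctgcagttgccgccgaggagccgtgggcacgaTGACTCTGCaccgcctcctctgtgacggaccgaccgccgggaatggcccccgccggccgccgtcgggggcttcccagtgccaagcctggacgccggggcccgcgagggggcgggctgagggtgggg
PSMD8: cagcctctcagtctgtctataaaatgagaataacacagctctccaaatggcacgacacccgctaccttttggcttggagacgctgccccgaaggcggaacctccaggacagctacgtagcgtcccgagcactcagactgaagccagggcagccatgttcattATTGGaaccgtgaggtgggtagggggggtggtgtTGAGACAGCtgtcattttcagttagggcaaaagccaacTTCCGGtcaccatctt
PSMD2: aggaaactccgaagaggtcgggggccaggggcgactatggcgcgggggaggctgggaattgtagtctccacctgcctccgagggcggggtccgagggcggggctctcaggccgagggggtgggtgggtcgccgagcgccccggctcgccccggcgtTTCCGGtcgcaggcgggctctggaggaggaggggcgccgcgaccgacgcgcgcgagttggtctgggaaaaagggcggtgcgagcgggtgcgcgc

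PSMD8 held all 3 motifs, with the antioxidant response core 54 to 46 bases before the start, the CCAAT box 88 to 84 and the ETS core 16 to 11 bases before it. PSMD2 held only an ETS core in this stretch, 94 to 89 bases before the start, and PSMA4 held the antioxidant response core and a CCAAT box but no ETS core. In the first window of PSMB5 the ETS letters read on both strands and overlap, within bases 85 to 78. The steady gene PSMB5 held the antioxidant response core in both windows too, at bases 18 to 10 in the first and 133 to 125 in the second. Of the 40 members, 35 had a window in the RefSeq set, 42 windows in all, each of 250 bases before and 50 after the start. The antioxidant response core was in 20 of the 42 (47.6%), against 29.1% of all 35116 windows, and the ETS core in 21 (50%) against 17.2%. The CCAAT box was in 17 (40.5%), close to the 34.6% of all windows. A match of letters is not evidence that a factor binds there.

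The effect of INZ in p53+/+ cells was asked with limma, with 1 mean per group and p values adjusted over all features by the Benjamini-Hochberg method. None of the 40 genes passed an adjusted p of 0.05, the smallest being 0.266, in a comparison in which 0.862% of all features passed. At an unadjusted p under 0.05 there were 5 genes (12.5%), beside 14.4% of all features, and this count ran from 0 to 8 when single arrays were left out. The median difference over the 40 was 0.09, with 25 above 0, and over all features -0.03. In p53-/- cells none passed either, the smallest adjusted p being 0.409 beside 1.48% of all features called, and none reached an unadjusted p of 0.05, which 13.6% of all features did. Without p53+/+ DMSO replicate 1, which enters only through the shared spread, 5 genes did. The median there was 0.02 with 22 above 0. The interaction, that is INZ effect in p53+/+ minus that in p53-/- cells, was also short of the threshold for every gene, with a smallest adjusted p of 0.92 and 1 gene, PSMF1, at an unadjusted p under 0.05, beside 0.0178% and 4.71% of all features.

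An uncalled gene is not shown to be unchanged, so the intervals were read too. The 95% interval of the INZ effect lay within 2-fold either way for 24 of the 40 genes in p53+/+ cells and 23 in p53-/- cells, or 60% and 57.5%. Over all features the shares were 38% and 38.8%. For the difference between the genotypes 15 genes had such an interval, against 9.74% of all features, so for the majority of members a difference of 2-fold or more between the genotypes could not be told from none with these arrays. In bulk RNA fewer cells that express a gene and less RNA per cell cannot be told apart.

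**Figure D2:**
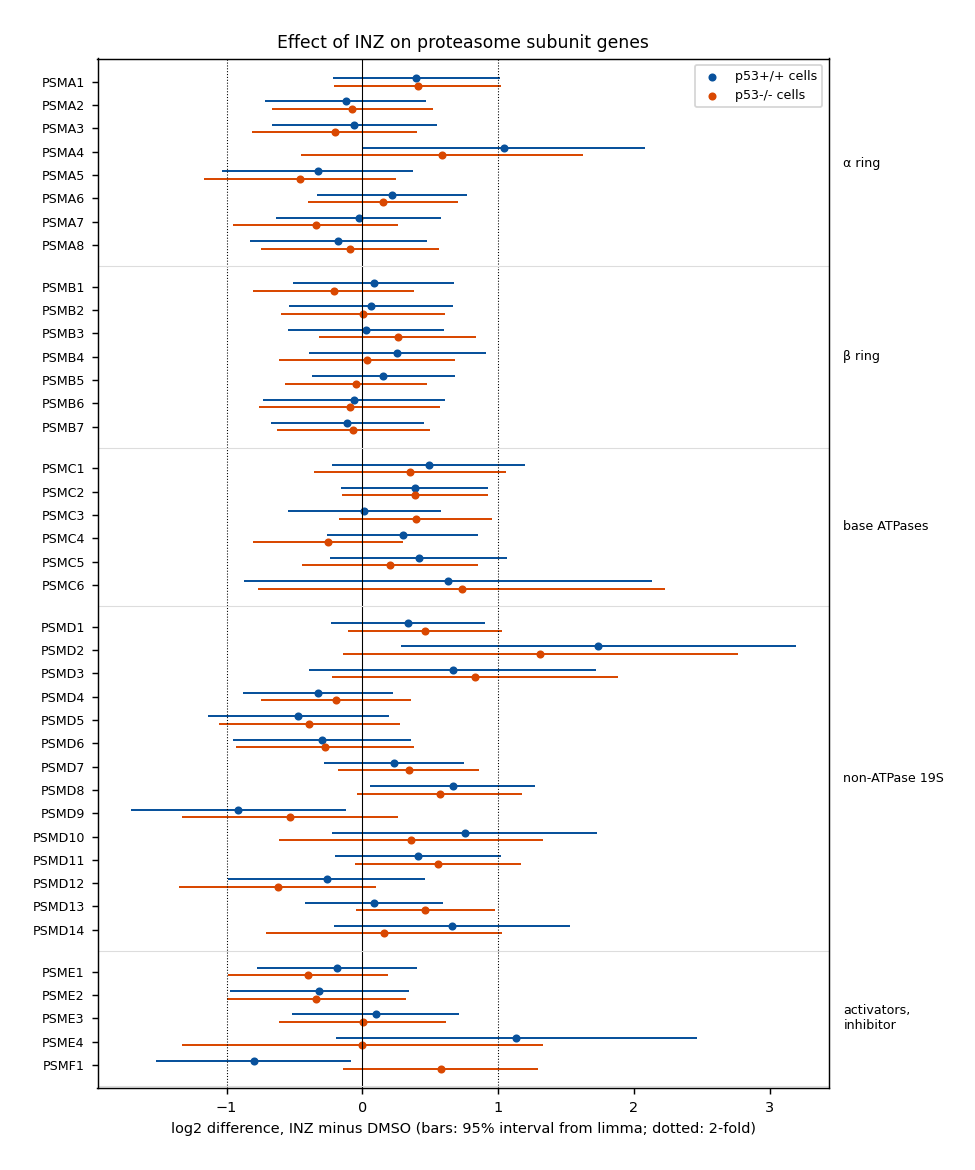
Log2 difference between INZ and DMSO (x axis) for each subunit gene (y axis, by class) in p53+/+ cells (blue) and p53-/- cells (orange), 3 arrays per group, with 95% intervals from limma. Dotted lines mark 2-fold. The β ring lies between them with all 14 intervals, while PSMD2, PSMC6 and PSME4 have the widest intervals, and no gene passed the threshold.

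The catalytic genes differed little between the groups. PSMB5 (NM_002797), the chymotrypsin-like subunit, was at 12.63, 12.29 and 12.60 in the 3 p53+/+ arrays with DMSO and at 12.77, 12.78 and 12.44 with INZ. The p53-/- arrays read 12.69, 12.83 and 12.75 with DMSO and 12.71, 12.87 and 12.54 with INZ. The groups with and without INZ overlapped in both genotypes, and the difference was 0.16 (95% interval -0.37 to 0.68, adjusted p = 0.815 by limma) in p53+/+ cells and -0.05 (-0.57 to 0.48, adjusted p = 0.96) in p53-/- cells. PSMB6 (NM_002798), the caspase-like subunit, differed by -0.06 (-0.73 to 0.61) and -0.09 (-0.76 to 0.57), and PSMB7 (NM_002799), the trypsin-like subunit, by -0.11 (-0.67 to 0.45) and -0.07 (-0.63 to 0.49). PSMB6 and PSMB7 had their lowest value of both INZ groups in replicate 3, at 11.78 and 11.63 for PSMB6 and at 11.44 and 11.70 for PSMB7.

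The rest of the β ring, which is structural, differed as little. Over its 7 genes the INZ effect ran from -0.11 (PSMB7) to 0.26 (PSMB4) in p53+/+ cells and from -0.21 (PSMB1) to 0.26 (PSMB3) in p53-/- cells, with medians of 0.065 and -0.05. These medians moved to 0.23 without p53+/+ INZ replicate 3 and to 0.19 without p53-/- INZ replicate 3, with all 7 genes above 0. None of the 7 separated the INZ from the DMSO arrays in either genotype, and all 7 intervals lay within 2-fold. The median SD within groups was 0.263 in the β ring and 0.291 over the 40 genes, against 0.307 for the 5020 features at least as bright as the members' lower quartile and 0.435 for all features. Without p53+/+ DMSO replicate 1 the β ring was at 0.280, above the base ATPases at 0.236 and the 40 genes at 0.278, so the order of the classes rested on that array. The members' spread was close to that of other bright features.

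**Figure D3:**
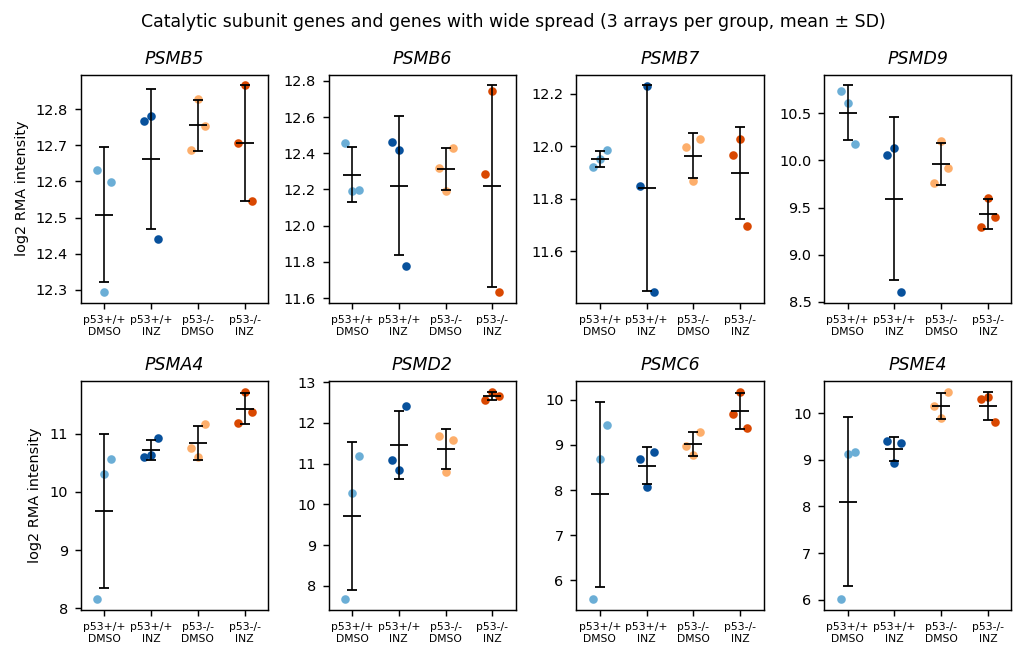
Log2 RMA intensity (y axis, a different range in each panel) of PSMB5, PSMB6, PSMB7, PSMD9, PSMA4, PSMD2, PSMC6 and PSME4 in the 4 groups, with 1 point per array and bars for mean ± SD (n = 3). The panels of the catalytic genes span little, while p53+/+ DMSO replicate 1 is the lowest point for PSMA4, PSMD2, PSMC6 and PSME4, at 8.16, 7.67, 5.58 and 6.01.

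In the α ring, which gates the core, 3 of 8 genes were above 0 with INZ in p53+/+ cells and 3 of 8 in p53-/- cells, with medians of -0.04 and -0.08. Without p53+/+ INZ replicate 3 the first was 0.12 with 6 of 8 above 0, and without p53-/- INZ replicate 3 the second was 0.014 with 5 of 8. PSMA4 (NM_002789) had the highest INZ difference of the class. It was at 8.16, 10.31 and 10.56 with DMSO and 10.60, 10.64 and 10.92 with INZ in p53+/+ cells. The p53-/- arrays read 10.76, 10.59 and 11.17 with DMSO and 11.19, 11.72 and 11.37 with INZ. Every INZ array was above every DMSO array of the same genotype. The difference was 1.04 (0.01 to 2.08, adjusted p = 0.345) in p53+/+ cells and 0.58 (-0.45 to 1.62, adjusted p = 0.659) in p53-/- cells. Without p53+/+ DMSO replicate 1, which held the 8.16, the first was 0.28. PSMA5, at -0.33 and -0.46, had the lowest difference of the class in both genotypes.

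The 6 ATPases of the base, which unfold the substrate, were all above 0 with INZ in p53+/+ cells and 5 of 6 in p53-/- cells, the exception being PSMC4 at -0.25. Their medians were 0.40 and 0.37, and none passed the threshold, the smallest adjusted p being 0.513 and 0.552. The first median was 0.14 without p53+/+ DMSO replicate 1, with 4 of 6 above 0. PSMC6 (NM_002806) had the highest INZ difference of the class in both genotypes. It read 5.58, 8.69 and 9.45 with DMSO and 8.69, 8.08 and 8.85 with INZ in p53+/+ cells, where the groups overlapped, and 8.98, 8.78 and 9.30 against 9.69, 10.18 and 9.38 in p53-/- cells, where they did not. The differences were 0.63 (-0.87 to 2.13) and 0.73 (-0.77 to 2.23). Without p53+/+ DMSO replicate 1 the value in p53+/+ cells turned to -0.53. PSMC3, the brightest member, had the lowest difference in p53+/+ cells at 0.02.

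The 14 genes of the PSMD series hold the lid, the large scaffold proteins of the base and its assembly chaperones. With INZ 9 of 14 were above 0 in each genotype, with medians of 0.28 and 0.35, and the smallest adjusted p were 0.266 and 0.409. Leaving out p53+/+ DMSO replicate 1 put the first median at 0.091, with 9 of 14 above 0. PSMD2 (NM_002808), a scaffold that binds ubiquitin-like domains, was at 7.67, 10.28 and 11.19 in p53+/+ cells with DMSO and at 11.09, 10.85 and 12.41 with INZ. In p53-/- cells it was at 11.69, 10.80 and 11.59 with DMSO and at 12.57, 12.77 and 12.67 with INZ. The groups overlapped in p53+/+ cells and not in p53-/- cells. The differences were 1.74 (0.28 to 3.19, adjusted p = 0.266) and 1.31 (-0.14 to 2.76, adjusted p = 0.431), or 3.33-fold and 2.48-fold. Without p53+/+ DMSO replicate 1 the first was 0.71 (adjusted p = 0.654). The second, the same 1.31, passed at an adjusted p of 0.0206 where the spread was estimated from the 6 p53-/- arrays alone. It passed at 0.026 without p53+/+ DMSO replicate 1 and p53+/+ INZ replicate 3. These fits called 6.01% and 5.61% of all features, against 1.48% with all 12 arrays.

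PSMD8 (NM_002812), a lid subunit, was higher in every INZ array than in every DMSO array of the same genotype. It was at 12.01, 12.66 and 13.08 with DMSO against 13.18, 13.18 and 13.38 in p53+/+ cells, and at 13.32, 13.14 and 13.16 against 13.81, 13.68 and 13.83 in p53-/- cells. The differences were 0.66 (0.06 to 1.27, adjusted p = 0.309) and 0.57 (-0.04 to 1.18, adjusted p = 0.409). Without p53+/+ DMSO replicate 1 the first was 0.38. PSMD11, another lid subunit, did not overlap in either genotype, with differences of 0.41 and 0.56 (adjusted p = 0.537 and 0.423), and without that array the first was 0.17. PSMD13, a lid subunit too, differed by 0.08 and 0.46, and PSMD3, a lid subunit, by 0.66 and 0.83. The 0.66 of PSMD3 was 0.28 without p53+/+ DMSO replicate 1, and leaving out p53+/+ INZ replicate 3 instead made it 0.04. PSMD12, at -0.26 and -0.62, was lower with INZ in the means, with overlapping groups in p53+/+ and p53-/- cells, and the first was 0.03 without p53+/+ INZ replicate 3.

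PSMD9 (NM_002813), a chaperone that helps assemble the base and is no subunit of the finished particle, went the other way. It was at 10.74, 10.61 and 10.18 with DMSO and at 10.05, 10.13 and 8.60 with INZ in p53+/+ cells. Without p53 it was at 9.77, 10.21 and 9.92 with DMSO and at 9.29, 9.60 and 9.40 with INZ. Every INZ array was below every DMSO array of its genotype. The differences were -0.91 (-1.71 to -0.12, adjusted p = 0.283) and -0.53 (-1.33 to 0.26, adjusted p = 0.579). Without p53+/+ INZ replicate 3, which held the 8.60, the first was -0.42. Of the other assembly chaperones of the base, PSMD5 lay below 0 and PSMD10 above 0 in both genotypes, with no call. In p53+/+ cells PSMD10 was at 8.58, 10.27 and 10.93 with DMSO, the 8.58 in replicate 1, and at 10.50, 10.60 and 10.94 with INZ. When the settings or arrays of the fit were changed, PSMD5 stayed below 0. The effect on PSMD10 then ran from -0.05 to 1.26 in p53+/+ cells and from -0.28 to 0.50 in p53-/- cells.

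Groups that did not overlap were counted over all 40 genes. In p53+/+ cells 5 genes separated INZ from DMSO (12.5%), PSMA4, PSMC4, PSMD8, PSMD9 and PSMD11, and 15.9% of all features did. In p53-/- cells 14 did (35%), 8 of them in the PSMD series, beside 25.7% of all features. Of these 14, PSMD9 and PSME1 were lower with INZ and the other 12 higher.

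The regulators of the core differed among themselves. PSMF1 (NM_006814), the inhibitor PI31, was at 7.60, 6.41 and 7.23 with DMSO and at 6.05, 5.94 and 6.85 with INZ in p53+/+ cells. Without p53 it was at 6.72, 6.84 and 6.53 with DMSO and at 7.36, 7.19 and 7.27 with INZ. The groups overlapped in p53+/+ cells and separated in p53-/- cells, in the other direction. The differences were -0.80 (-1.52 to -0.09, adjusted p = 0.297) and 0.58 (-0.14 to 1.29, adjusted p = 0.492). The difference between them, tested as such, was -1.38 (-2.39 to -0.37), with an unadjusted p of 0.0112 and an adjusted p of 0.92. It was -1.12 without p53+/+ DMSO replicate 1. PSMF1 was near the median feature of 6.41, and its INZ values of 6.05 and 5.94 lay below it.

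**Figure D4:**
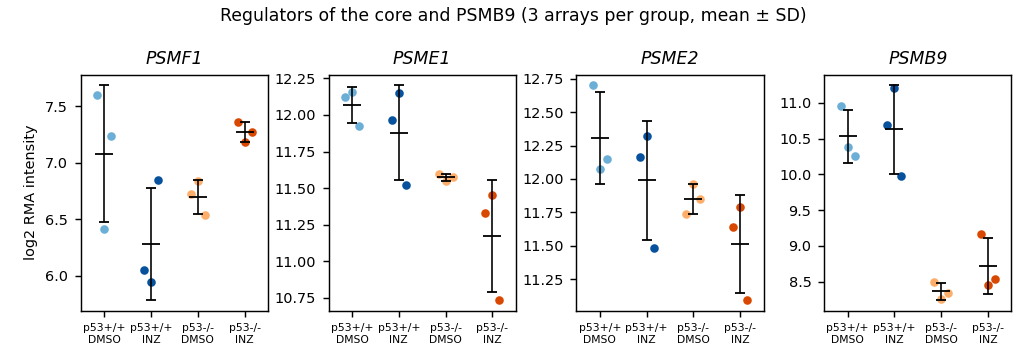
Log2 RMA intensity (y axis, a different range in each panel) of PSMF1, PSME1, PSME2 and the immunoproteasome gene PSMB9 in the 4 groups, with 1 point per array and bars for mean ± SD (n = 3). PSMF1 is lower with INZ in p53+/+ and higher in p53-/- cells, PSME1 and PSMB9 are higher in every p53+/+ array than in every p53-/- array of the same treatment.

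PSME1 (NM_176783) and PSME2 (NM_002818), which form the interferon-induced activator PA28, had INZ effects of -0.19 and -0.32 with p53 and of -0.40 and -0.34 without it. PSME3, the nuclear activator, was 0.10 and 0.00. PSME4 (NM_014614), the activator PA200, was at 6.01, 9.13 and 9.16 with DMSO and at 9.41, 8.93 and 9.36 with INZ in p53+/+ cells. Its difference was 1.13 (-0.20 to 2.46, adjusted p = 0.426) and rested on the single value of 6.01, since without that array it was 0.09. In p53-/- cells the difference was 0.00 (-1.33 to 1.33), with values of 10.16, 9.89 and 10.44 against 10.31, 10.35 and 9.82.

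Much of the spread in p53+/+ DMSO came from replicate 1. There 11 of the 40 genes (27.5%) were more than 1 below the median of the other 11 arrays and none was more than 1 above it, beside 13.7% of all features that far below and 13.3% that far above. The other arrays had at most 1 such gene below and 3 above. The low genes were PSMD2 at -3.92, PSME4 at -3.80, PSMC6 at -3.40, PSMA4 at -2.60, PSMD10 at -2.35, PSMD14 at -1.67, PSMD3 at -1.57, PSMC1 at -1.43, PSMD8 at -1.17, PSMC5 at -1.09 and PSMA1 at -1.05. They comprised 3 of the 6 base ATPases, 5 of the 14 PSMD genes, 2 α subunits and 1 activator, and no gene of the β ring. Without this array no member reached an unadjusted p of 0.05 for the INZ effect in p53+/+ cells, and 33 of 40 intervals lay within 2-fold. The lower quartile of its intensities, at 49.5, was the highest of the 12 arrays (44.2 to 49.5), and the part of this in the low genes was not tested.

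**Figure D5:**
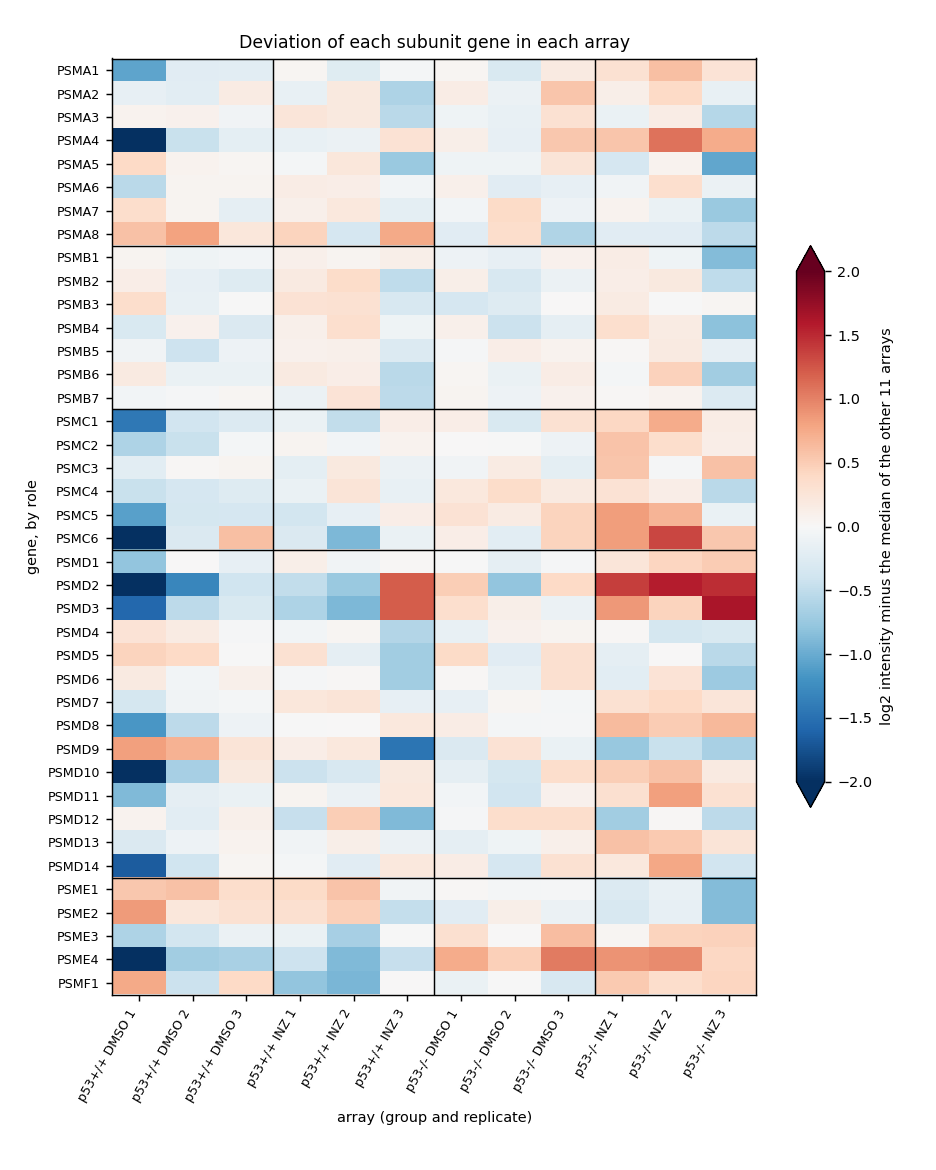
Log2 intensity of each subunit gene (rows, by class) in each array (columns) minus its median over the other 11 arrays, as colour, which saturates at 2 either way. The column of p53+/+ DMSO replicate 1 holds the darkest low values, PSMD2, PSME4, PSMC6, PSMA4 and PSMD10, and the rows of the β ring stay pale in that column.

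The genotypes were then compared within each treatment. With DMSO none of the 40 genes was called (0.211% of all features were), the smallest adjusted p being 0.261, and 6 had an unadjusted p under 0.05, beside 12% of all features. That count was 1 without p53+/+ DMSO replicate 1 and likewise without p53-/- DMSO replicate 1 or 3, 10 without p53+/+ DMSO replicate 3, and 0 with the arrays' lower quartiles as a covariate. The median of p53+/+ minus p53-/- was -0.07, with 12 genes above 0. Groups did not overlap for 10 genes (25%), against 17.6% of all features. The smallest p belonged to PSME4, at -2.06 (-3.39 to -0.73, adjusted p = 0.261), which was -1.02 without p53+/+ DMSO replicate 1. PSMD2 at -1.64, PSMA4 at -1.17 and PSMC5 at -0.76 were next, and were -0.62, -0.41 and -0.51 without that array. PSMB5 also separated the genotypes with DMSO, by -0.25 (-0.77 to 0.28), with overlap under INZ.

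With INZ none was called either (0.484% of all features were), and 2 genes, PSMF1 and PSME1, had an unadjusted p under 0.05, beside 10.3% of all features. There were 8 without p53+/+ DMSO replicate 1, 7 without p53+/+ INZ replicate 3 and 1 without p53+/+ INZ replicate 1. The median was -0.13 with 17 genes above 0, and 14 genes (35%) did not overlap, beside 15.6% of all features. PSMF1 was -0.99 in p53+/+ cells relative to p53-/- cells (-1.71 to -0.28, adjusted p = 0.297), PSMD3 0.499-fold (0.24 to 1.04, adjusted p = 0.51) and PSME3 -0.58 (-1.20 to 0.03, adjusted p = 0.511). The 95% intervals lay within 2-fold for 22 of 40 genes with DMSO and 23 with INZ, beside 40.1% and 41.7% of all features. Without p53+/+ INZ replicate 3, which held the highest PSMD3 of its group at 13.87, the difference of PSMD3 was -1.62. It passed at an adjusted p of 0.0496 by limma, in a fit that called 3.67% of all features. Without that array and p53+/+ DMSO replicate 1 together, PSMC6, PSMD2, PSMD3 and PSMF1 passed, at -1.36, -1.70, -1.62 and -1.28 (adjusted p = 0.028, 0.0112, 0.0123 and 0.0178), in a fit that called 9.54% of all features. PSME1 lay the other way, at 0.71 (0.12 to 1.30, adjusted p = 0.385). PSME1 was at 12.12, 12.16 and 11.92 with DMSO and 11.96, 12.15 and 11.52 with INZ in p53+/+ cells. The p53-/- arrays were at 11.59, 11.55 and 11.58 with DMSO and 11.33, 11.45 and 10.74 with INZ. The genotypes separated in both treatments, with a difference of 0.50 (-0.09 to 1.08, adjusted p = 0.486) with DMSO. The 5 comparisons share arrays, so the values of a gene in them are not independent.

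Genes that work with the proteasome were read beside it. The immunoproteasome gene PSMB9 (NM_002800), a catalytic subunit that replaces PSMB6 in interferon-treated and immune cells, was the only one of these related genes past the threshold in any comparison of all 12 arrays. It was at 10.95, 10.39 and 10.25 with DMSO and 10.70, 11.21 and 9.98 with INZ in p53+/+ cells. Without p53 it was at 8.49, 8.26 and 8.34 with DMSO and 9.16, 8.45 and 8.54 with INZ. All p53+/+ arrays were above all p53-/- arrays, by 2.17 with DMSO (1.44 to 2.89, adjusted p = 0.0201) and by 1.91 with INZ (1.18 to 2.64, adjusted p = 0.0223). INZ did not separate its arrays in either genotype, with differences of 0.10 and 0.35 (adjusted p = 0.926 and 0.714).

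The call was lost in either treatment with only the arrays compared (adjusted p = 0.103 with DMSO and 0.0821 with INZ), with the arrays' lower quartiles as a covariate (0.0772 and 0.055), and without single arrays. With DMSO the adjusted p of PSMB9 was 0.0701 without p53+/+ DMSO replicate 1, 0.0591 without p53+/+ DMSO replicate 2, and 0.096, 0.0982 and 0.104 without p53-/- DMSO replicates 1, 2 and 3. With INZ it was 0.104 and 0.133 without p53+/+ INZ replicates 1 and 2, and 0.14 and 0.143 without p53-/- INZ replicates 2 and 3. Its difference stayed between 1.52 and 2.24 in all of these. PSMB10 did not separate the genotypes, and PSMB8 was below the median feature.

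None of the other related lists had a call for INZ with all 12 arrays. They were 5 assembly factors, 11 ubiquitin receptors, deubiquitinases and shuttles, 8 genes of the NRF1 pathway, 9 of ubiquitin and its activation, and 4 of p97 (VCP) and its cofactors. The NRF1 pathway had the highest medians, at 0.72 in p53+/+ cells and 0.59 in p53-/- cells, with 8 and 7 of 8 above 0. The exception in p53-/- cells was NGLY1, at -0.82. In p53+/+ cells NGLY1 was at 6.34, 8.37 and 8.44 with DMSO and at 8.36, 7.57 and 7.64 with INZ. Its place above 0 there, and so the 8 of 8, rested on p53+/+ DMSO replicate 1, which held the 6.34. SYVN1 was at 8.87, 9.06 and 8.96 with DMSO and at 8.13, 9.23 and 9.81 with INZ in p53+/+ cells. Its place above 0 rested on the 9.81 of p53+/+ INZ replicate 3. DDI2, also among the 8, was below the median feature, at a mean of 5.83. MAFF, a small MAF partner, differed by 2.08 (adjusted p = 0.13) and NFE2L2, which encodes NRF2, by 2.00 (adjusted p = 0.167) in p53+/+ cells, with values of 5.20 and 5.42 in p53+/+ DMSO replicate 1. Without that array they differed by 1.37 and 1.01 (adjusted p = 0.362 and 0.351 by limma). Both passed without p53+/+ DMSO replicate 3, at 2.60 (adjusted p = 0.0395) and 2.57 (adjusted p = 0.0465). That fit kept p53+/+ DMSO replicate 1 and called 2.63% of all features, against 0.862% with all 12 arrays. NFE2L1, which encodes NRF1, differed by 0.47 and 0.21. Assembly factors were at medians of -0.33 and -0.23, and POMP, the core's maturation factor, at -0.58 and -0.40.

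For 5 members with several features, PSMA1, PSMA3, PSMA8, PSMD13 and PSME1, the features gave no call in any INZ effect. Those of PSMD13 differed most in order, with INZ effects of 0.08 and 0.28 where p53 was present and 0.46 and 0.18 where it was not. No feature was called between the genotypes either. The second feature of PSME1 lay the same way as the first, at 0.66 with DMSO and 0.82 with INZ (adjusted p = 0.403 and 0.334 by limma). The features of PSMA8, all below the median feature, went both ways with DMSO, at 0.55, -0.23 and -0.38.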

How the data were processed

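RNA of 12 HCT116 cultures, 3 per group, was measured on 1-colour NimbleGen arrays. The authors deposited 1 table of RMA values. They are linear intensities (16.2 to 61942) after background correction, normalization across arrays and a summary over each feature's probes. For RMA's version and settings and for the annotation build, the sources used here say nothing. The deposited intensities were taken to log2 without a pseudocount. The files give no detection calls, so features below the median feature are called dim. Gene names came from the platform annotation for 18188 features and from a RefSeq accession match for 678, and the other 26167 were tested unnamed.

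Tests used limma (3.58.1, R 4.3.3). All 12 arrays entered with a mean for each group, Benjamini-Hochberg adjustment over 45033 features and a threshold of 0.05. The pipeline was tested on simulated data. The p values measure the spread between these cultures, and the number of arrays limits their precision. The members and lists were chosen with earlier results of these data known. Genes named are the catalytic subunits, the 4 smallest p of each comparison, the highest and lowest of each class for INZ, called genes and the 2 smallest p of each related list for INZ. Genes named beyond this (PSMD3, PSMD5, PSMD10, PSME2, SYVN1 and the low genes of 1 array, among others) were chosen after their values were seen. A few genes that this rule or the label check would name are not reported here. Alternatives changed normalization, filters, covariates, weights and the arrays in the fit. Promoter windows came from RefSeq (GRCh38.p14). Figures used matplotlib 3.10.9 in Python 3.11.15.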

Additional observations from a re-analysis of the deposited data

How the results depend on the processing

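Of 67 values for named genes, 47 kept their sign in all 22 alternatives and 20 changed it in at least 1, none of which was a call. The count of subunit genes called stayed at 0 except as follows. For INZ in p53-/- cells it was 1 of 40 (PSMD2) with only the 6 arrays compared, where 6.01% of all features were called. It was also 1 (PSMD2) without p53+/+ DMSO replicate 1 and p53+/+ INZ replicate 3, beside 5.61% of all features. For p53+/+ against p53-/- with INZ it was 4 without those arrays (PSMC6, PSMD2, PSMD3 and PSMF1), beside 9.54% of all features. With array weights it was 2 (PSMD3 and PSMF1, adjusted p = 0.0442 and 0.0241 by limma), beside 5.48% of all features. Leaving out 1 array at a time gave 0 to 1 calls for p53+/+ against p53-/- with INZ and 0 to 0 for the other 4 comparisons. The fit with 1 call, without p53+/+ INZ replicate 3, called 3.67% of all features. The median difference of the 40 genes then ran from 0.078 to 0.20 for INZ in p53+/+ cells, from -0.095 to 0.21 in p53-/- cells, from -0.091 to 0.17 for the difference between these effects, from -0.15 to -0.034 for the genotypes with DMSO and from -0.28 to -0.013 with INZ. Without p53-/- INZ replicate 3 the median was 0.21 for INZ in p53-/- cells, -0.091 for the difference between the effects and -0.28 for the genotypes with INZ. With the arrays' lower quartiles as a covariate the genotype median with DMSO was -0.23. The causes were not tested.

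With the replicate number as a block, 0 subunit genes were called in any comparison and 376, 812, 7, 87 and 212 features of all, against 388, 666, 8, 95 and 218 without it, in the order of the comparisons above. Deviations of arrays from their group means were correlated between groups. Same-numbered arrays had a median of 0.01 over 18 pairs (-0.19 to 0.33, 5 of them over 0.1). The other 36 pairs had a median of -0.02 (-0.36 to 0.28, 8 of them over 0.1). The array of p53+/+ INZ replicate 3 correlated at 0.33 with p53+/+ DMSO replicate 3 and at 0.31 with p53-/- INZ replicate 3. With 3 arrays per group, such correlations cannot decide whether the numbers pair the samples. Over the alternatives the number of features called ran from 9 to 1185 for INZ in p53+/+ cells, 229 to 2996 in p53-/- cells, 6 to 30 for the difference between these effects, 6 to 525 for the genotypes with DMSO and 59 to 4298 with INZ. With only the arrays compared, the difference between the effects takes all 12 arrays and so has no separate value.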
